A study of Caenorhabditis elegans with 12 samples.

Results

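Aspartic proteases and cathepsins are the endopeptidases of the acidic compartments of the cell, the lysosomes and the intestinal lumen. In *Caenorhabditis elegans*, a nematode that feeds on bacteria, many of them are made in the intestine, where they break down food protein. Others act in the turnover of the animal's own proteins, in the processing of yolk, in moulting and in the death of injured neurons. The genes described here are the 26 of 24238 genes in the table that are named *asp*, *cpr*, *cpl* or *cpz* followed by a number. They comprise 15 *asp* genes (aspartyl proteases, related to cathepsin D and pepsin) and 8 *cpr* genes (cysteine proteases related to cathepsin B). The others are 1 gene with a *cpl* name, *cpl-1* (cathepsin L), and 2 *cpz* genes (cathepsin Z). The names alone chose them, not their values.

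RNA was sequenced from whole animals of N2, the wild-type strain that both groups share. Control animals received dimethyl sulfoxide (DMSO, 6 libraries), and treated animals received TM, the copper chelator tetrathiomolybdate, over 4 days (6 libraries). Stage, sex, dose, food and the origin of each culture are not given in the labels, so p-values measure the spread between libraries, which may be technical in part. Libraries held between 61432401 and 67068328 counted reads. Levels are FPKM, fragments per kilobase of transcript scaled to library size, as the authors deposited them. Changes are log2 ratios of TM over DMSO ± SE from a count model (edgeR's quasi-likelihood test, Benjamini-Hochberg adjusted over all tested genes), and a gene "rose" or "fell" where its adjusted p lay under 0.05.

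The proteases did not move as one family. Of the 26 genes, 21 had a mean of at least 1 FPKM and were tested, and all 21 also had a DMSO mean of at least 1 FPKM. Of these, 5 rose (*asp-17*, *cpr-3*, *cpr-5*, *cpz-2* and *cpr-8*), 4 fell (*asp-12*, *cpr-1*, *asp-6* and *cpr-6*) and 12 did not pass. Of all 11535 tested genes 39.8% passed, with 23.7% of the tested genes higher and 16% lower in TM, where the proteases gave 42.9%, 23.8% and 19%, so their count was near the background. After quantile normalization the split was 5 higher and 8 lower. At that setting 42% of all tested genes passed, with a median log2 change of -0.088 over all tested genes. With the count model, the median log2 change of the 21 was -0.042, beside -0.0091 over all tested genes. In 7 of the 21 the FPKM values of the groups did not overlap, 5 with TM higher and 2 with TM lower, beside 22.5% of all tested genes, 16.1% with TM higher and 6.41% with TM lower.

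**Figure D1:**
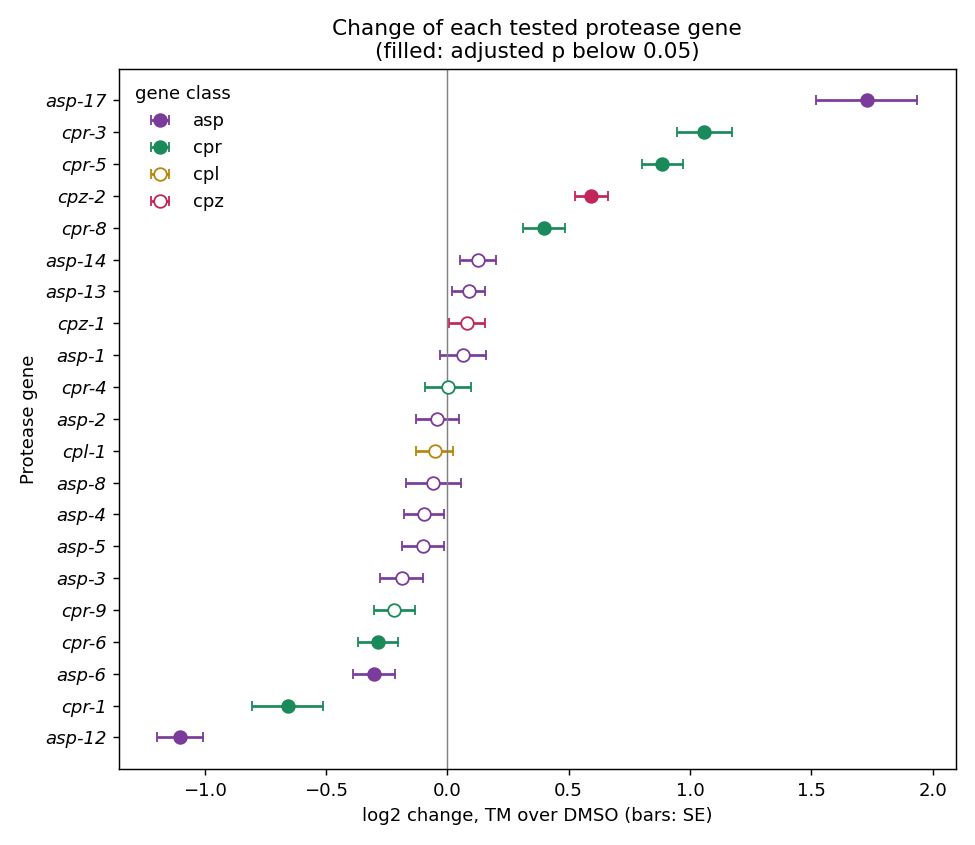
Log2 change of TM over DMSO (x axis) for each of the 21 tested protease genes (y axis), with SE as bars, coloured by gene class and filled where the adjusted p lay under 0.05. The changes ran from -1.102 for *asp-12* to 1.73 for *asp-17*, with most points near 0.

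Several of these genes were among the most abundant transcripts of the animal. By mean FPKM over the 12 libraries *asp-1* ranked 18th of all genes in the table, *asp-6* ranked 38th and *cpl-1* ranked 53rd. Together the 26 genes held 1.79% ± 0.0737 of the summed FPKM in DMSO and 1.61% ± 0.0874 in TM (mean ± SD, n = 6). The ranges of 1.67% to 1.89% and 1.48% to 1.68% overlapped. Their own summed FPKM was 11928 ± 705 in DMSO and 11186 ± 800 in TM. That of all genes was higher in TM, at a mean of 696305 beside 664929 in DMSO. Per gene, the largest negative differences of TM minus DMSO means were those of *asp-6* and *asp-12*, at -320 and -316 FPKM. The largest positive differences were those of *asp-1*, whose change did not pass, and *cpr-5*, at 138 and 113 FPKM. On this scale the difference was 28.6 FPKM for *cpr-3* and 2.81 FPKM for *asp-17*.

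**Figure D2:**
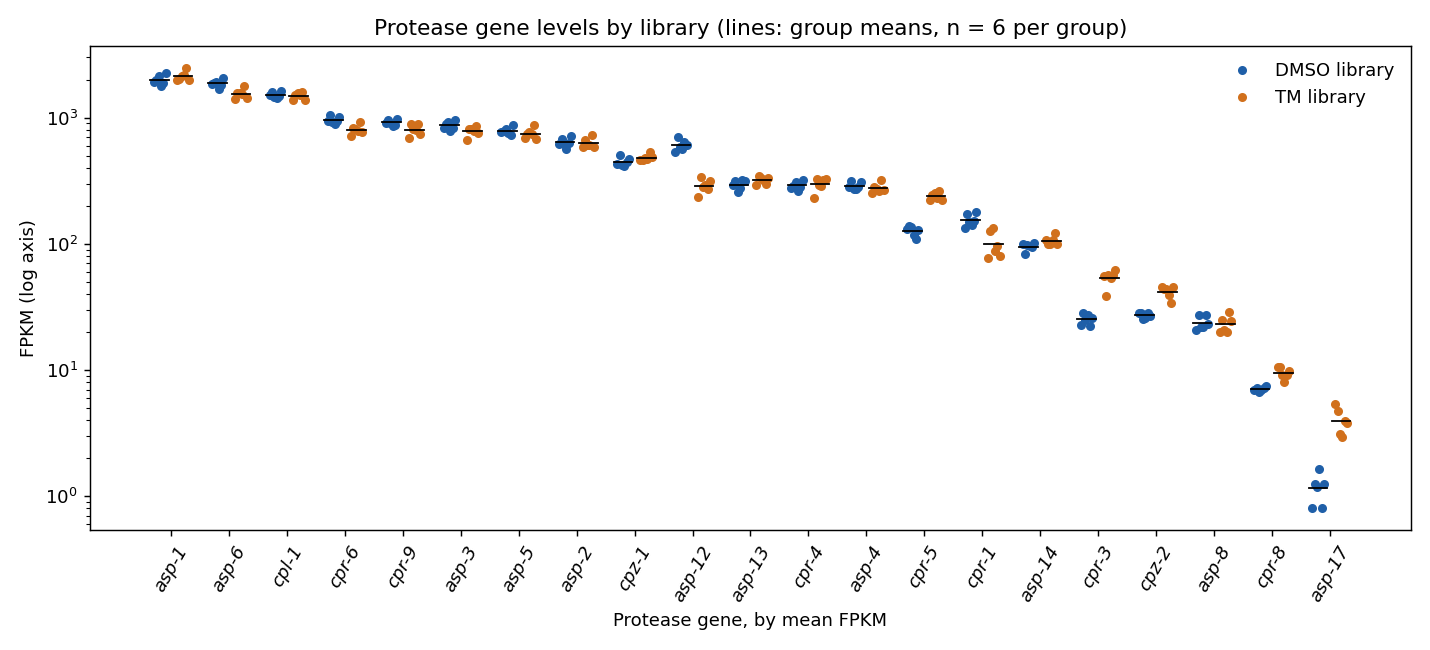
FPKM on a log axis for the 21 tested protease genes, ordered by mean level, with 1 point per library (6 DMSO, 6 TM) and group means as lines. The levels span from about 2065 FPKM for *asp-1* to 2.56 FPKM for *asp-17*, and the points of *asp-12*, *cpr-1*, *cpr-5*, *cpr-3*, *cpz-2*, *cpr-8* and *asp-17* separate by group.

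The largest fall was that of *asp-12*, an aspartyl protease that the deposited table annotates to innate immune response. In DMSO *asp-12* had 530.4 FPKM in the lowest library, a median of 597 and 696 in the highest, and in TM 234, 286 and 337. Each TM library lay below each DMSO library. The log2 change was -1.102 ± 0.094 (adjusted p = 2.11e-06), a ratio of 0.466. It passed under all 23 alternatives, with log2 changes between -1.15 and -0.99.

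The other aspartyl protease to fall was the abundant *asp-6*, by much less. Its DMSO libraries ran from 1694 FPKM through a median of 1861 to 2053, and its TM libraries from 1395 through 1546 to 1793. The groups overlapped through TM replicate 5, the highest TM library, which lay above the lowest DMSO library. The log2 change was -0.30 ± 0.088 (adjusted p = 0.0139).

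For *asp-1*, an intestinal aspartyl protease and the most abundant member, the range was 1788 to 2258 FPKM in DMSO (median 1954) and 1984 to 2476 FPKM in TM (median 2092). The groups overlapped and the change did not pass (log2 change 0.065 ± 0.094, adjusted p = 0.603), with an interval of ±1.96 SE from -0.12 to 0.25. Without TM replicate 5, its highest library, the log2 change was 0.00027 (edgeR adjusted p = 0.998). The genes *asp-3* and *asp-4* encode proteases needed for necrotic death of neurons. In DMSO *asp-3* had 787 to 960.1 FPKM (median 861) and in TM 665 to 856 (median 795), a log2 change of -0.19 ± 0.088 that did not pass (adjusted p = 0.101). It passed with DESeq2, with quantile normalization and without TM replicate 5. The level of *asp-4* was 289 ± 19.8 FPKM in DMSO and 276 ± 23.2 in TM (adjusted p = 0.369).

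Among the remaining tested aspartyl proteases *asp-2*, *asp-5*, *asp-8*, *asp-13* and *asp-14* did not pass, with log2 changes between -0.099 for *asp-5* and 0.13 for *asp-14*. After quantile normalization *asp-5* (-0.22, limma adjusted p = 0.00539) and *asp-14* (0.19, limma adjusted p = 0.0239) passed. Their levels differed widely, from 23.7 ± 2.82 FPKM in DMSO for *asp-8* to 785 ± 49.4 for *asp-5*. *asp-17* was the scarcest tested protease and the one with the largest rise. It had 0.806 to 1.64 FPKM in DMSO (median 1.22) and 2.92 to 5.37 in TM (median 3.85), on 573 reads in the 6 DMSO libraries and 1970 in the 6 TM libraries. Its groups did not overlap, and the log2 change was 1.73 ± 0.21 (adjusted p = 2.07e-05), 1.19 on the log2(FPKM + 1) scale and 0.78 after quantile normalization, and it passed in both.

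The aspartyl proteases *asp-16*, *asp-9*, *asp-7* and *asp-15* and the cathepsin B-type gene *cpr-2* lay under 1 FPKM and were not tested. *asp-17*, at a mean of 2.56 FPKM, was the member just above that filter, and *asp-16*, at 0.362 FPKM, the one just below. *asp-16* had 0 to 0.341 FPKM in DMSO and 0.215 to 0.889 in TM, on 71 and 289 reads. With no filter on low values its log2 change was 1.95 ± 0.60 (edgeR adjusted p = 0.0262). The other 4 had at most 67 reads summed over the 6 libraries of a group, and none passed without the filter.

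Cathepsin B-type genes moved in both directions, 3 up and 2 down of 7 tested (42.9% and 28.6%, beside 23.7% and 16% of all tested genes). *cpr-1*, whose product the table describes as a gut-specific cysteine proteinase, fell. Its DMSO libraries had 135 to 179 FPKM (median 150.1) and its TM libraries 77.5 to 132 (median 91.6). The groups did not overlap, but TM replicates 2 and 3, at 127 and 132 FPKM, lay near the lowest DMSO value while the other 4 TM libraries had 77.5 to 95.5. The log2 change was -0.66 ± 0.14 (adjusted p = 0.00249). Without DMSO replicates 2 and 6 and TM replicate 5, it was -0.51 and no longer passed (adjusted p = 0.0579). Those libraries held many of the highest values over the tested proteases, though TM replicate 5 was not high for *cpr-1*, at 95.5 FPKM.

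*cpr-6*, an abundant cathepsin B gene, fell slightly. It had 889.6 to 1041 FPKM in DMSO (median 943) and 719 to 919 in TM (median 799.6), with TM replicate 5 again the library that overlapped the controls, and a log2 change of -0.28 ± 0.082 (adjusted p = 0.013). *cpr-9*, at a similar level, had 865 to 975 FPKM in DMSO (median 904) and 693 to 891 in TM (median 805). Its log2 change of -0.22 ± 0.084 lay just outside the threshold (adjusted p = 0.0516) and passed in 13 of 23 alternatives. *cpr-4*, which encodes a secreted cathepsin B, had 290.2 ± 21.5 FPKM in DMSO and 297 ± 37.2 in TM, a log2 change of 0.003 ± 0.095 (adjusted p = 0.983).

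Of the cathepsin B-type genes that rose, *cpr-5* and *cpr-3* changed most. For *cpr-5* the range was 110 to 139 FPKM in DMSO (median 130.03) and 222 to 264 in TM (median 238), and the groups lay far apart (log2 change 0.89 ± 0.085, adjusted p = 3.61e-06). *cpr-3*, which the table annotates to innate immune response, had 22.1 to 28.4 FPKM in DMSO (median 25.3). In TM it had 38.7 in replicate 2, which was the lowest, and 53.1 to 62.3 in the others (log2 change 1.06 ± 0.11, adjusted p = 7.63e-06). *cpr-8* rose less, from 6.67 to 7.49 FPKM in DMSO (median 7.07) to 8.01 to 10.6 in TM (median 9.51). Its log2 change of 0.40 ± 0.088 (adjusted p = 0.00248) became 0.14 and did not pass after quantile normalization (adjusted p = 0.1). The rises of *cpr-5* and *cpr-3* passed under all 23 alternatives.

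The cathepsin L gene *cpl-1*, which is required for embryonic development and yolk processing, had the third highest level of these genes. Its values ran from 1427 to 1631 FPKM in DMSO (median 1493) and from 1367 to 1585 in TM (median 1516). The groups overlapped, and the log2 change of -0.052 ± 0.076 did not pass (adjusted p = 0.603), with an interval of ±1.96 SE from -0.20 to 0.096. After quantile normalization it was -0.24 and passed (limma adjusted p = 0.0094). Of the cathepsin Z genes, *cpz-1*, which acts in moulting, had 413 to 503 FPKM in DMSO and 464 to 530.04 in TM and did not pass (log2 change 0.080 ± 0.074, adjusted p = 0.409). It passed without DMSO replicates 2 and 6 and TM replicate 5 (log2 change 0.15, adjusted p = 0.00633), as did *asp-13* (log2 change 0.19, adjusted p = 0.00602). Its relative *cpz-2* had 25.4 to 28.4 FPKM in DMSO (median 27.4) and 34.2 to 45.4 in TM (median 43.7), with TM replicate 5 the lowest TM library. These groups did not overlap, and *cpz-2* rose by a log2 change of 0.59 ± 0.068 (adjusted p = 1.5e-05). *cpz-2* overlaps *gcy-34* on the other strand by 59 bases, a gene with 0.101 ± 0.0863 FPKM in DMSO and 0.0835 ± 0.0519 in TM. *cpz-1* overlaps *F32B5.9* by 123 bases, with 0.667 ± 0.398 and 2.07 ± 0.756 FPKM, also on the other strand, and whether counting used the strand is not stated.

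The rises, unlike the falls, were spread unevenly over the range of levels when the genes were split at 250 FPKM. Of the 13 more abundant genes, all at 250 FPKM or above, 0 rose and 3 fell (0% and 23.1%). Of all 414 genes at that level 44% passed, with 24.6% of the 414 higher and 19.3% lower. Of the 8 less abundant proteases that were tested, 5 rose and 1 fell (62.5% and 12.5%). Of all 11121 tested genes below that level 39.6% passed, with 23.7% of the 11121 higher and 15.9% lower. This split was made after the values had been seen and was not tested.

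**Figure D3:**
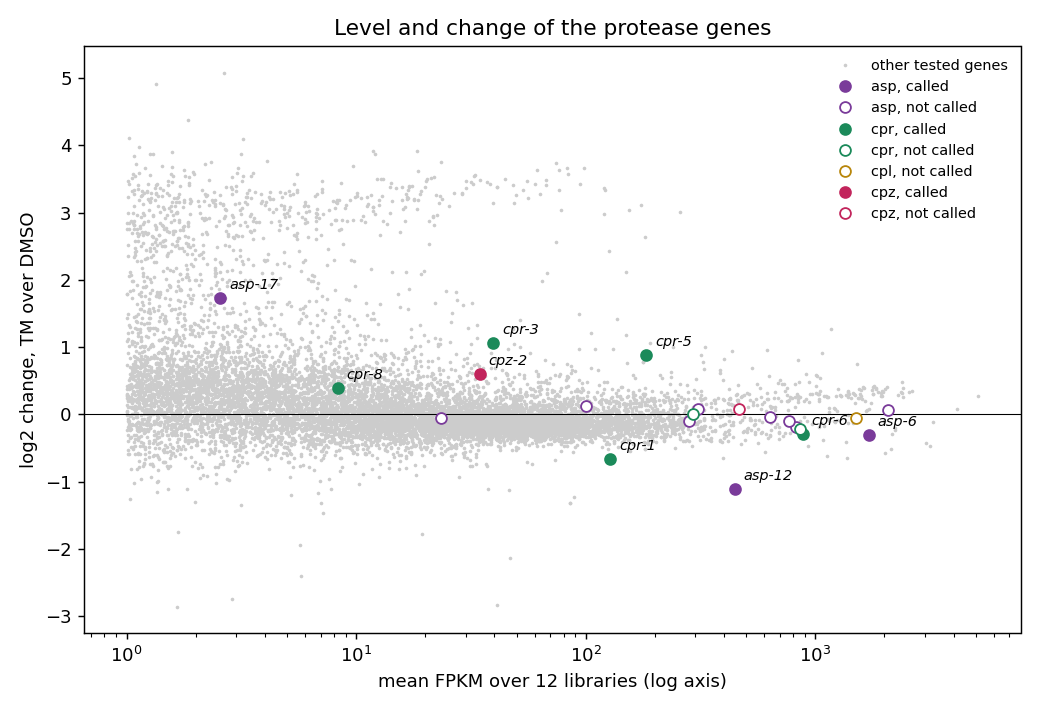
Mean FPKM over the 12 libraries (x, log axis) against the log2 change of TM over DMSO (y) for all tested genes in grey and the 21 protease genes in colour, filled where the adjusted p lay under 0.05. The 5 risen proteases lie between 2.56 and 184 FPKM, and none of the 13 above 250 FPKM rose, a split made after the values had been seen.

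In the genome, 20 of the 26 genes (76.9%) lie on chromosome V, which holds 20.4% of the genes in the table, 4 on X and 1 each on I and IV. On V, 11 genes stand in 4 runs with less than 5000 bases between neighbours. Summed exon lengths ran from 993 to 1564 bases. The start and end of 24 of the 26 equal those of WBcel235 in RefSeq, and coordinates here are those of the table.

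The run of *asp-6* (V, 8267511 to 8268937, minus strand), *asp-12* (8270643 to 8272056, plus) and *asp-5* (8272385 to 8274044, plus) holds 3 abundant aspartyl proteases with unequal changes. Only 328 bases separate *asp-12* from *asp-5*. The FPKM of *asp-12* was 0.693 to 0.884 of that of *asp-5* in the DMSO libraries and 0.31 to 0.464 in the TM libraries. The mean log2 ratio was -0.38 ± 0.16 in DMSO and -1.38 ± 0.23 in TM (SD, n = 6). The FPKM of *asp-6* was 2.69 to 3.49 times that of *asp-12* in DMSO and 4.59 to 6.59 times in TM. For both ratios the groups did not overlap.

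The run of *cpr-5* (V, 1132598 to 1134036, minus strand) and *cpr-8* (1134602 to 1139182, plus) held genes that both rose, though not equally. The ratio of *cpr-5* to *cpr-8* lay between 15.4 and 20.4 in DMSO and between 21.2 and 28.9 in TM, a difference of 0.49 on the log2 scale. Of the 7 neighbouring pairs, these 3 had both genes tested. Each gave an exact permutation p = 0.00216 (two-sided, 6 against 6 libraries, adjusted over the 3 pairs 0.00216), the smallest that this design allows. Because 2 of these pairs share *asp-12*, and the ratios follow from the changes of the single genes, these tests add no independent result. The share of other gene pairs that reach this p was not computed. *W07B8.4* (1130112 to 1131930, minus), on the other side of *cpr-5* and given the same cathepsin B orthology in the table, had 0.67 ± 0.131 FPKM in DMSO and 1.61 ± 0.457 in TM. It reached a mean of 1 FPKM only through its TM libraries, so these levels are a description.

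Another run joins the scarcest tested gene to the most abundant one. In order it holds, on V, *asp-17* (19035723 to 19037322, minus strand), *asp-16*, *asp-15* and *asp-1* (19049562 to 19050752, minus). *asp-17* rose and the change of *asp-1* did not pass, while *asp-15* had at most 0.144 FPKM in any library. How reads that match several genes were counted is not given in the sources used here, so values of neighbouring copies carry that uncertainty.

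**Figure D4:**
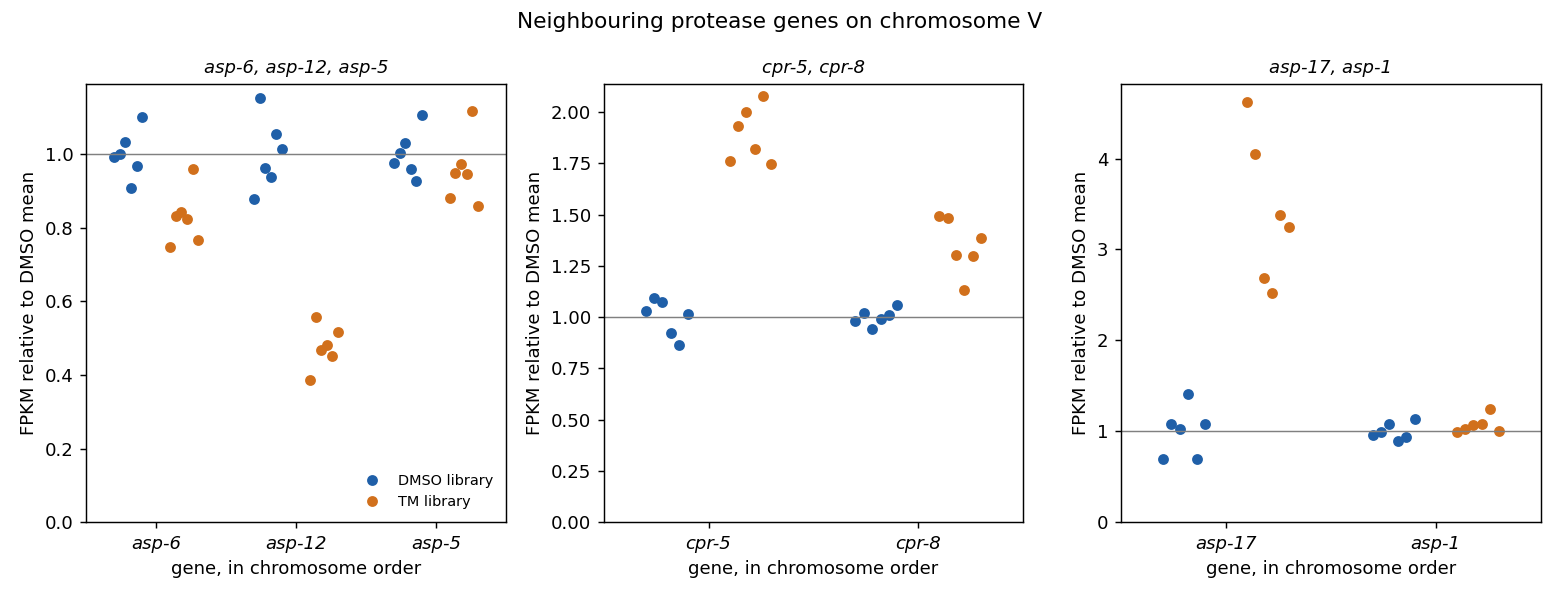
FPKM of each library divided by the gene's DMSO mean (y axis, starting at 0, scales differ between panels) for neighbouring protease genes on chromosome V, with 1 point per library and *asp-16* and *asp-15* left out for their low levels. The TM points of *asp-12* lie below those of both its neighbours, both *cpr* genes lie above 1 in TM, and *asp-17* rises beside *asp-1*.

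Further genes carry the same cathepsin and aspartic protease orthology or that of cathepsin F in the table without such a name, 17 in all, and this list was chosen after the values had been seen. Of these 8 were tested, *W07B8.4* among them. Of the other 7, 3 rose and 0 fell, beside 23.7% and 16% of all tested genes. Those that rose were *Y65B4A.2*, *F26E4.3* and *hrg-7*, an aspartic protease that signals heme status between tissues. The level of *hrg-7* went from 28.2 ± 3.54 to 39 ± 4.53 FPKM (log2 change 0.43 ± 0.10, edgeR adjusted p = 0.00432). The cathepsin F gene *tag-196* had 30.4 FPKM in DMSO and 33.7 in TM and did not pass (log2 change 0.12 ± 0.23, edgeR adjusted p = 0.694).

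Genes that act with these proteases moved in both directions too. Of 71 tested genes in 6 lists, 19 rose and 9 fell, 39.4% in all, beside the background of 39.8%. These include *clp-6* among those that rose and *gba-2* among those that fell. Each reached a mean of 1 FPKM only through 1 group, TM for *clp-6* and DMSO for *gba-2*. After quantile normalization the counts were 8 and 23, where 42% of all tested genes passed. The cystatin gene *cpi-1*, an inhibitor of cathepsins, rose from 23.7 ± 3.57 to 33.3 ± 4.69 FPKM (log2 change 0.46 ± 0.11, edgeR adjusted p = 0.00442), while *cpi-2* had 95.1 and 91.8 FPKM and did not pass.

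Other peptidases of lysosome and gut rose in 5 and fell in 3 of 14 (35.7% and 21.4%, beside 23.7% and 16% of all tested genes). Among cathepsin A-type carboxypeptidases *ctsa-4.1* fell from 13.8 ± 2.09 to 7.58 ± 1.5 FPKM (log2 change -0.89 ± 0.13, edgeR adjusted p = 0.00011). *ctsa-1.2* fell from 334 ± 26.2 to 246 ± 33 FPKM (log2 change -0.47 ± 0.10) and *ctsa-4.2* fell by 0.60 on the log2 scale. The prolyl carboxypeptidase *pcp-4* rose from 6.70 ± 0.526 to 11.5 ± 1.35 FPKM (log2 change 0.74 ± 0.098, edgeR adjusted p = 4.3e-05).

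Lysosome and gut granule genes rose in 4 and fell in 4 of 29 (13.8% each, beside 23.7% and 16% of all tested genes). Among those that fell was *gba-2*, whose mean lay above 1 FPKM only through its DMSO libraries. *aagr-4*, which the table names an acid alpha glucosidase relative, rose from 3.35 ± 0.300 to 7.11 ± 1.28 FPKM (log2 change 1.05 ± 0.11), and the cholesterol transporter gene *ncr-1* and the alpha-galactosidase gene *gana-1* rose by 0.52 and 0.43 on the log2 scale. The lysosomal nuclease gene *nuc-1* fell from 35 ± 2.95 to 24.4 ± 2.40 FPKM (log2 change -0.55 ± 0.083). The lysosomal membrane gene *lmp-1* had 179 FPKM in DMSO and 169 in TM and did not pass.

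Of 9 genes listed as intestinal GATA factors and other regulators, 3 rose (33.3%) and 0 fell, beside 23.7% and 16% of all tested genes. The intestinal GATA factor gene *elt-7* rose from 5.97 ± 0.770 to 8.66 ± 1.05 FPKM (log2 change 0.50 ± 0.11, edgeR adjusted p = 0.00312), as did *pha-4* and *mxl-3*. *elt-2*, the main intestinal GATA factor, had 8.18 FPKM in DMSO and 7.27 in TM and did not pass (log2 change -0.20 ± 0.084, edgeR adjusted p = 0.0759). For peptide and amino acid uptake, 4 of 11 genes rose and 2 fell (36.4% and 18.2%, beside 23.7% and 16% of all tested genes). Among them the peptide transporter genes *pept-2* (log2 change 0.83 ± 0.17) and *pept-3* rose, and *aat-9* fell by 0.27. The main intestinal peptide transporter gene *pept-1* did not pass, with 21.3 and 20 FPKM. Calpains are cytosolic proteases, some of which act upstream of the aspartyl proteases in necrosis. Of 6 tested, *clp-6* and *clp-4* passed (33.3%, beside 39.8% of all tested genes), both higher in TM. *clp-6*, with 0.445 FPKM in DMSO and 1.9 in TM, reached a mean of 1 FPKM only through its TM libraries.

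Markers of the intestine were present. Of 12 intestine markers 5 rose (41.7%) and 0 fell, beside 23.7% and 16% of all tested genes. The median log2 change of these markers was 0.11. Their summed level ran from 806 to 937 FPKM in DMSO and from 936 to 1056 in TM. The lowest TM sum lay just under the highest DMSO sum. Defining genes were all detected, among them *ges-1*, *act-5* and *elt-2*. Markers of other tissues moved more: all 7 of body wall muscle and all 6 tested of sperm rose, *spe-11* of the latter tested only through its TM level. Epidermis markers rose in 4 and fell in 1 of 7, pharynx markers rose in 4 and fell in 1 of 6, and oocyte and germline markers rose in 0 and fell in 6 of 9. The part of these tissue markers in the protease changes was not tested, and in whole animals fewer cells of a type and less RNA per cell cannot be told apart.

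A few libraries carried the extremes of most members. DMSO replicate 6 had the highest DMSO value for 11 of the 21 tested proteases and TM replicate 5 the highest TM value for 13. Summed FPKM over all genes was also highest in TM replicate 5, at 749726. It was higher in TM as a group, with 676270 to 749726 (mean 696305) beside 641213 to 689027 (mean 664929) in DMSO. TM replicate 1 had the lowest TM value for 13 of the 21. Libraries also differed beyond the proteases. Over tested genes of known length, the log2 deviation per doubling of exon length was -0.259 in TM replicate 5, beside -0.056 to 0.020 in the other TM libraries. In DMSO it was -0.092 in replicate 6 and 0.032 in replicate 2, beside 0.081 to 0.168 in the others. The part of this difference in the protease values was not tested. Without DMSO replicates 2 and 6 and TM replicate 5, 7 proteases rose and 4 fell. In that fit 55% of all tested genes passed, beside 39.8% with all 12 libraries. There, *asp-12*, *cpr-5*, *cpr-3*, *cpz-2* and *asp-17* had log2 changes of -0.99, 0.93, 1.13, 0.69 and 1.82.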

How the data were processed

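The deposited table gives a raw read count and an FPKM value per gene and library, per the file headers. The authors used cutadapt 1.9, FastQC, HISAT2 2.2.1 and StringTie, per the submitters' processing notes. Libraries were poly(A)-selected and dUTP-stranded, per the labels' protocols. No source used here names the counting tool, its strand setting or the genome build; 24 of 26 members have WBcel235 coordinates.

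The 11535 genes averaging 1 FPKM or more (12703 lay below) were tested on the deposited counts with edgeR 4.0.16 in R 4.3.3: TMM scaling, robust dispersions, quasi-likelihood F test, two-sided, threshold 0.05, treatment as the only term. The SE is the log2 change divided by the square root of F. Alternatives used DESeq2 1.42.0 and limma 3.58.1, other filters and scalings, an offset for exon length, a replicate block and fewer libraries. The model was also run on simulated counts, with far fewer changed genes than here and libraries that differed only in size. That run cannot vouch for the calls in these data.

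Members were chosen by name. This choice, the related lists and the tests were made with earlier results of these data known. All members are named. Values in full were given for members that passed and the 6 most abundant, and up to 4 passing genes per related list. Of list genes, T28H10.3 and opt-2 were not matched. The product column planned for finding unnamed relatives was replaced by KEGG orthology entries of the table. Neighbours were tested by an exact permutation test of log2 FPKM ratios.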

Additional observations from a re-analysis of the deposited data

Results flagged for a closer look

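Among 42 sets of 6 libraries (21 tested proteases in 2 groups), 4 held a library that stood far from the other 5 for its range, where chance gives about 1 in 20. In TM replicate 5, *cpz-1* had 530.04 FPKM against 464 to 487 in the other TM libraries, *asp-1* had 2476 FPKM against 1984 to 2161, and *asp-14* had 122 FPKM against 99.6 to 107. In DMSO replicate 2, *asp-14* had 82.5 FPKM against 93.9 to 101 in the other DMSO libraries. None of these 3 genes passed with all 12 libraries, and 3 of the 4 values come from TM replicate 5.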

How the results depend on the processing

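Each of 21 proteases was recomputed under 23 alternatives, 483 values in all. Among these, 3 lost their call: *asp-6* with the replicate block (adjusted p = 0.0549), *cpr-8* after quantile normalization and *cpr-1* when DMSO replicates 2 and 6 and TM replicate 5 were left out. Among the rest a call was gained in 21, of which 13 were of *cpr-9*, 3 of *asp-3*, and 1 each of *asp-5*, *asp-14* and *cpl-1* after quantile normalization and of *cpz-1* and *asp-13* without those 3 libraries. No value of a protease that passed changed sign. Changes near 0 did so in 16 cases, none of which passed: *cpr-4* had -0.00886 with no filter, -0.0395 with filterByExpr, -0.0159 with median-ratio scaling and with DESeq2, -0.00882 with the length offset, -0.00149 with the replicate block and -0.0358 to 0.0699 leaving out single libraries. *asp-1* had -0.0635 after quantile normalization, *asp-2* -0.107 to 0.012 leaving out single libraries and 0.00977 without the 3 libraries, and *cpl-1* 0.0111 without these 3 and -0.0874 to -0.0129 leaving out single libraries, beside -0.236 after quantile normalization, which passed (limma adjusted p = 0.0094). Quantile normalization gave 8 lower proteases, and 8 higher and 23 lower genes of the related lists. At that setting 42% of all tested genes passed, with a median log2 change of -0.088 over all tested genes. The cause of these counts was not tested. Leaving out single libraries gave 5 higher and 4 to 6 lower proteases, where 34.5% to 46.3% of all tested genes passed. With the replicate block 5 proteases rose and 3 fell, and 16 related genes rose and 7 fell, where 31.5% of all tested genes passed. Replicate numbers were not taken as pairs: same-numbered libraries correlated from -0.383 to 0.263, and 2 of 6 matched their own number best. The 5 proteases under 1 FPKM were left out by the filter on level, and *asp-16* passed without it (adjusted p = 0.0262) and with filterByExpr (adjusted p = 0.0214).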
